A study of Homo sapiens with 3 samples.

Results

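Transcript levels of protein-coding genes were compared directly between cells overexpressing miR-182-5p and cells overexpressing miR-183-5p, without passing through the control. Of the 30923 genes in the deposited table, 15591 carried a coding transcript, 11374 of these had at least 200 counts in 1 or both of the 2 libraries, and 8410 of those had no other gene of the table overlapping them on the same chromosome and strand. These 8410 genes are the members of the comparison. The 4217 coding genes left out for low counts and the 2964 left out for a same-strand overlap are no members. An overlapping gene on the opposite strand was present for 3837 members and absent for 4573.

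The cells were QBC-939 (QBC939 in the labels), an established human line from cholangiocarcinoma, a cancer of the bile ducts. The labels give the cell type as CCA cells, the genotype as WT and the treatments as oe-miR-182-5p, oe-miR-183-5p and oe-NC, with 1 library for each treatment. NC is the control, and its sequence, the form in which each microRNA was supplied, its dose and the time of harvest are not stated in the labels. The counts come from cellular RNA aligned to genes, so the levels of the microRNAs are not known from these data. A replicate check is missing, since each treatment has 1 library. A difference between the 2 libraries can belong to the culture or the library as well as to the microRNA, no p-value was computed, and a value in parentheses after a ratio is a 95% interval that covers counting error only.

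MicroRNAs are short RNAs that guide an Argonaute protein to messenger RNAs, mostly to sites in the 3' untranslated region (3' UTR), where the complex shortens the life of the messenger RNA and lowers its translation. Pairing rests mainly on the seed, a stretch near the 5' end of the microRNA, so that microRNAs with different seeds are expected to address different genes. MIR182, MIR183 and MIR96 form a single cluster that is expressed together in sensory cells and is raised in many carcinomas, and its 3 mature products resemble each other.

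The mature sequences are shown because the comparison turns on how far the 2 seeds differ. They are from RefSeq (GRCh38.p14), written 5' to 3', with the seed (positions 2 to 8) in capitals. Mature miR-182-5p lies at chr7:129770447-129770470 and mature miR-183-5p at chr7:129774967-129774988, both on the minus strand.
miR-182-5p: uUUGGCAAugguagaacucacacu
miR-183-5p: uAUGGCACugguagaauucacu
Aligned from their first base without gaps, the microRNAs carried the same base at 18 of 22 positions, and at 5 of the 7 seed positions. The complementary target letters were TTGCCAA for miR-182-5p and GTGCCAT for miR-183-5p, so no 7-nucleotide site serves both.

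The counts summed to 61709874 under miR-182-5p and 67427313 under miR-183-5p, against 64516706 in NC, and the members held 66.2%, 66.4% and 66.9% of them. Mitochondrially encoded genes took 16.7%, 16.1% and 13.5% of the counts in the same order. The transcripts were those of an epithelial cell: all 8 biliary or glandular epithelial markers reached 1 CPM (the usual unit of counts scaled to the library total) in both microRNA libraries, with summed levels of 5500 and 5950 CPM. KRT8 and KRT18 gave the largest part of these sums, and KRT7 had 6.17 and 6.96 CPM. Of 6 intestinal or gastric epithelial markers, 4 reached 1 CPM in both, and the panel summed to 789 and 849 CPM. The markers therefore do not single out a biliary cell among epithelial cells. Of 6 hepatocyte markers, SERPINA1 and HNF4A reached 1 CPM in both, and albumin had 0 and 9 counts. The fibroblast markers summed to 23.7 CPM under miR-182-5p and 16.2 CPM under miR-183-5p, the endothelial markers to 2.22 and 1.68 CPM, and the immune markers to 1520 and 1450 CPM, nearly all of it lysozyme, which epithelial cells also make. The pan-leukocyte marker PTPRC had 9 and 0 counts.

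The 2 libraries were close to each other for most genes. The ratio of the CPM under miR-182-5p to that under miR-183-5p had a median of 1.002 over the 8410 members, 50.4% of members lay within 1.1-fold and 86.4% within 25%, with the smaller value taken as 100%. The 5th percentile of the ratio was 0.81 and the 95th was 1.34. Across members, which are not independent replicates, the log2 CPM of the 2 libraries had a Pearson correlation of 0.989. A member is called higher or lower here when the larger of its 2 CPM values was at least 25% above the smaller and the counting interval excluded 1, which is a rule of size and no test between conditions. By this rule 792 members (9.42%) were higher under miR-182-5p and 349 (4.15%) were lower, that is, higher under miR-183-5p. At 2-fold, 32 members (0.38%) were higher and 7 (0.0832%) were lower.

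The balance between higher and lower members depended on how the libraries were put on a common scale. Scaling to the total gave 69.4% of the calls as higher, TMM scaling gave 561 higher and 598 lower (48.4% higher), and median-of-ratios scaling gave 502 higher and 737 lower (40.5% higher). The median log2 ratio over all members moved from 0.00334 to -0.0469 and -0.068 under these scalings. The direction of a single gene with a large ratio was not touched by shifts of this size, whereas gene groups whose median is close to 0 could change sign. The lists in which this happened are named together with the signalling groups.

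**Figure D1:**
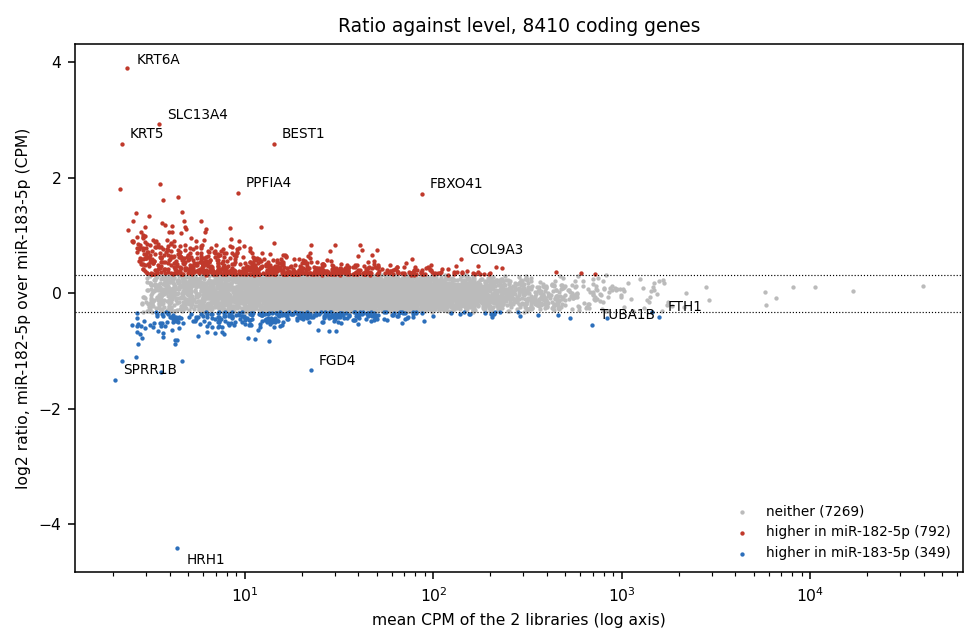
Ratio of the CPM under miR-182-5p to that under miR-183-5p (vertical axis, log2) against the mean CPM of both libraries (horizontal axis, log scale), 1 point per member, with 792 members called higher in red, 349 called lower in blue and the limits of a 25% difference as dotted lines. Most points lie between the dotted lines, and the largest ratios belong to genes of low level, with FBXO41 as an abundant exception.

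The requirement of 200 counts could be met through a single library. Of the members, 111 had fewer than 200 counts under miR-183-5p, and 105 of these were called higher; 71 had fewer than 200 counts under miR-182-5p, and 38 of these were called lower. The raw counts of such members had to differ for them to be kept, and their calls count for little. As the miR-182-5p library had the smaller total, a lower raw count there did not by itself force a lower CPM. Among the genes described here this holds for KRT6A, KRT5, SLC13A4, NDUFA4L2, CP, GPR161, NLGN3, TMEM74B, BNIP3, PEX7, IQCN, TMOD2, NEURL3, S100A1, SLC16A12, TP53INP1, SPRY3, H3C8, RORA, CCDC121, TFEB, SLC25A42, CCN2, PDX1 and H3C6 on the higher side. On the lower side it holds for HRH1, SPRR1B, NPIPA7, ITPKA, MYL5, MT1A, ZNF25, HYI, TRMT10A, PTAFR, CLDN23, TMEM182, ELOVL3, ZNF441 and SMIM19. Just inside the limit, 62 members had 200 to 219 counts in the larger library and 35 of them were called, and just outside it 79 genes had 180 to 199 counts and 39 of them would have been called. No member was at 0 in either library, and the lowest count was 20.

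The NC library, which played no part in choosing the members, was set beside both. Of the 792 higher members, the NC value lay nearer to the miR-183-5p library in 614 (77.5%), and their median log2 ratio to NC was 0.46 for the miR-182-5p library and 0.00178 for the miR-183-5p library. NC lay nearer to the miR-182-5p library in the other 178, and it lay below both libraries in 400 of the 792. Of the 349 lower members, NC lay nearer to the miR-183-5p library in 294 (84.2%), with medians of -0.44 and -0.02. It lay nearer to the miR-182-5p library in 55 and above both libraries in 188 of the 349. Among called members of both directions, the library further from NC was mostly the miR-182-5p library, as far as a single NC library can show. Over all 8410 members the median log2 ratio to NC was -0.0402 for the miR-182-5p library and -0.0424 for the miR-183-5p library. The share of all members with NC nearer to either library was not computed. Both ratios to NC share the same NC library, so they are given side by side and not correlated.

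Seed sites were searched for in the longest annotated 3' UTR of each member (GENCODE release 29, GRCh38), which was possible for 8387 members (99.7%). Genes with a miR-182-5p site were not lower under miR-182-5p than genes with a miR-183-5p site by more than a few hundredths on the log2 scale. A TTGCCAA was held by 1321 of the 3' UTRs (15.8%) and a GTGCCAT by 1022 (12.2%), both read on the transcribed strand. The 2 motifs differ in their first and last letters, so a stretch that matches one does not match the other. The 1029 genes with a miR-182-5p site only had a median log2 ratio of 0.00875, the 730 with a miR-183-5p site only 0.0305, the 292 with both 0.0124 and the 6336 with neither -0.00116. The difference between the first 2 classes was -0.0218, against an SD of 0.25 over all members. Of the genes with a miR-182-5p site only, 9.23% were called higher and 3.11% lower, and of those with a miR-183-5p site only, 8.77% and 4.25%.

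Site number and type gave no steeper gradient. Sites followed by an A, the stronger form, were present in 547 genes for miR-182-5p alone, with a median of 0.0166, and in 173 for miR-183-5p alone, with a median of 0.0337. Genes with 2 or more miR-182-5p sites (202) had a median of 0.0362, above 0, and genes with 2 or more miR-183-5p sites (123) a median of 0.0292. Genes with any miR-182-5p site (1321) had a median of 0.00892, and genes with any miR-183-5p site (1022) a median of 0.0247. Sites of 4 microRNAs that were not overexpressed were examined after the values were seen. The medians were 0.0436 for 832 genes with a miR-96-5p site and 0.04 for 836 with a miR-21-5p site. They were 0.0397 for 952 genes with a let-7a-5p site and 0.0271 for 2105 with a miR-16-5p site. The medians for any miR-182-5p site and for any miR-183-5p site were both below all 4, and the reason was not tested.

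Genes with sites have long 3' UTRs, and the ratio moved with that length. The median 3' UTR was 2585 nucleotides in genes with a miR-182-5p site only, 2637 in genes with a miR-183-5p site only and 1032 in genes with neither. Within each quintile of 3' UTR length the miR-182-5p class lay below the miR-183-5p class, by -0.035, -0.0304, -0.01, -0.00853 and -0.0385 from the shortest to the longest quintile. The first of these rests on 27 and 31 genes. The order was therefore the same in all 5 quintiles, and each step was small beside the rise of the median across the quintiles, from -0.0363 to 0.059 over all genes.

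**Figure D2:**
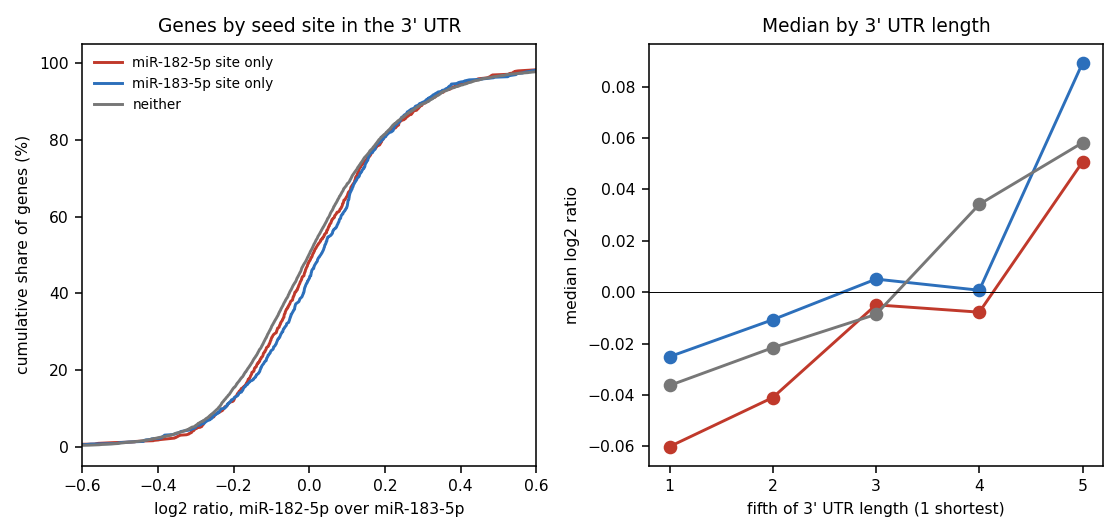
Left, cumulative share of genes (percent) against the log2 ratio of the miR-182-5p to the miR-183-5p library for genes with a miR-182-5p site only (1029), a miR-183-5p site only (730) or neither (6336); right, the median log2 ratio of the same classes by quintile of 3' UTR length. The 3 curves nearly coincide on the left, and on the right the classes are higher in the longest than in the shortest quintile, although both classes with a site dip slightly from the third to the fourth, with the miR-182-5p class below the miR-183-5p class in each quintile.

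The sites shown are those of the 3 lowest ratios among members with a miR-182-5p site and of the 3 highest among members with a miR-183-5p site, that is, of members chosen by the ratio in the direction that their site would give. Each line is the site in capitals with up to 11 bases on either side, from the 3' UTR on GRCh38, and the coordinates are those of the 7 site bases.
FGD4, miR-182-5p site at chr12:32640921-32640927: atacctccatgTTGCCAAaatagatccat
MAST4, miR-182-5p site at chr5:67169254-67169260: tatcatcatttTTGCCAAatatgtttttc
THAP10, miR-182-5p site at chr15:70882295-70882301: agtttgcttgcTTGCCAAcacaatgaaga
NDUFA4L2, miR-183-5p site at chr12:57235539-57235545: ctgggctgccaGTGCCATgcaagccacag
PPFIA4, miR-183-5p site at chr1:203077905-203077911: gggccagtgcaGTGCCATcctacaggtgg
LZTS3, miR-183-5p site at chr20:3164130-3164136: gcagacgtgcaGTGCCATaaggtgcccca
The sites of FGD4, MAST4 and LZTS3 are of the form followed by an A.

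FGD4 encodes an exchange factor that activates the GTPase CDC42. It had 781 counts (12.7 CPM) under miR-182-5p, 2152 (31.9 CPM) under miR-183-5p and 2127 (32.97 CPM) in NC, a ratio of 0.397 (0.365 to 0.431). The miR-182-5p library alone was low, and the other two libraries agree within 1.1-fold. MAST4, a microtubule-associated kinase, had 8.28, 14.4 and 7.13 CPM (first miR-182-5p, then miR-183-5p, then NC, the order of all triplets that follow) with a ratio of 0.576 (0.516 to 0.641). Here the miR-183-5p library was the one that stood apart, above both others, so the ratio below 1 did not come from a low value under miR-182-5p. THAP10, which carries a THAP-type zinc finger, had 4.23, 7.07 and 5.42 CPM. Among the other members with a miR-182-5p site and a low ratio, the complex I assembly factor NDUFAF4 had 9.17, 14.3 and 14.1 CPM and the lipid hydrolase PNPLA4 had 5.82, 9.27 and 7.72 CPM. TMEM182, DYNC1I1 and SMIM19 complete the 8 members with a miR-182-5p site and the lowest ratios. TMEM182 and SMIM19 were kept through the miR-183-5p library alone, so their raw counts had to be lower under miR-182-5p. In 6 of the 8 the miR-183-5p library lay within 25% of NC, and the exceptions were MAST4 and THAP10.

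Among members with a miR-183-5p site and a high ratio, the miR-183-5p library was seldom the one that stood apart. PPFIA4, a liprin scaffold protein of synapses, had 14.1, 4.23 and 4.79 CPM, a ratio of 3.33 (2.91 to 3.82). LZTS3, a leucine zipper protein, had 6.81, 3.52 and 3.88 CPM, and the nuclear receptor RORA had 3.55, 2.002 and 2.39 CPM. In these 3 genes the miR-183-5p library was within 25% of NC, and the miR-182-5p library was above both. NATD1 had 7.16, 3.84 and 5.38 CPM and SPRY3, a Sprouty inhibitor of receptor tyrosine kinase signalling that holds a site for each microRNA, had 4.26, 2.25 and 2.74 CPM. CCDC121, with 2 miR-183-5p sites, was the clearest case of a low value under miR-183-5p, with 4.21, 2.42 and 3.97 CPM and a ratio of 1.74 (1.43 to 2.13).

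No gene reported elsewhere as a target was called in the direction of its microRNA. Over all members 9.42% were called higher and 4.15% lower. At such shares lists of 24 and 16 genes would hold few calls or none, so this absence says little. Of 24 reported miR-182-5p targets among the members, 4 were called higher under miR-182-5p (16.7%) and 0 lower. Their median log2 ratio was 0.089, beside 0.00334 over all members. The 4 higher genes were the mitophagy receptor BNIP3 at 2.62 (2.06 to 3.35), the stress protein TP53INP1 at 1.89 (1.57 to 2.29), the hypoxia-induced NDRG1 at 1.44 (1.38 to 1.499) and the actin-binding MTSS1 at 1.26 (1.19 to 1.34). BNIP3 had 3.81, 1.45 and 1.22 CPM and TP53INP1 5.02, 2.65 and 2.201 CPM; both hold a TTGCCAA in the 3' UTR, and both have a gene on the opposite strand. Both also had fewer than 200 counts under miR-183-5p and were kept through the miR-182-5p library alone, so their calls say little on the direction of targets. TMM and median-of-ratios scaling each left 3 of the 4 calls. Without the members that have such an opposite gene, the median of the list was -0.00445. The lowest of the list were PFN1 at 0.847 (0.835 to 0.858), ULBP2 at 0.871 (0.7796 to 0.974) and RAC1 at 0.884 (0.863 to 0.907), none of them called. Of 16 reported miR-183-5p targets, none was called in either direction and the median was -0.0128 (-0.0772 without an opposite gene); the values ran from AKAP12 at 0.839 (0.805 to 0.875) to LRP6 at 1.07 (1.04 to 1.1).

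HPGD and FOXO1 stand in both target lists. HPGD, the enzyme that inactivates prostaglandins, lies at chr4:174490175-174523065, minus strand, and its annotated 3' UTR begins with a miR-182-5p site at chr4:174492077-174492083.
HPGD, miR-182-5p site: TTGCCAAtggattgataa
It had 5.19, 4.98 and 7.55 CPM, a ratio of 1.04 (0.8901 to 1.22). The 2 microRNA libraries did not differ beyond counting error, and both were below NC. FOXO1, a transcription factor of the insulin pathway, had 11.7, 11 and 13.7 CPM, a ratio of 1.06 (0.9597 to 1.18). The proteins that carry out microRNA repression also differed little: of 8 members none was called, with AGO4 at 1.23 (1.17 to 1.303) and AGO3 at 1.22 (1.16 to 1.29) at the upper end and PRKRA at 0.858 (0.799 to 0.921) and DROSHA at 0.866 (0.837 to 0.895) at the lower. Their median of 0.07 went below 0 under median-of-ratios scaling.

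Among members without any overlapping gene the highest ratios were those of KRT6A and KRT5, keratins of stratified epithelium. KRT6A (ENSG00000205420, chr12:52487176-52493257, minus strand), a keratin of activated squamous epithelium, had 273 counts (4.42 CPM) under miR-182-5p, 20 (0.297 CPM) under miR-183-5p and 24 (0.372 CPM) in NC, a ratio of 14.9 (9.47 to 24.8). KRT5 (ENSG00000186081, chr12:52514575-52520394, minus strand), the keratin of basal cells, had 235 counts (3.81 CPM) under miR-182-5p, 43 (0.638 CPM) under miR-183-5p and 22 (0.341 CPM) in NC, a ratio of 5.97 (4.299 to 8.47). Both were low in NC and under miR-183-5p, and reached a few CPM under miR-182-5p only. KRT6A has near-identical copies in the genome, among which reads could be divided, so its value is uncertain. SPRR1B, a protein of the cornified envelope that is made in the same kind of epithelium, went the other way with 1.07, 3.04 and 6.11 CPM and a ratio of 0.352 (0.262 to 0.466), and it was highest in NC.

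FBXO41 was the member with a high level that differed most. This F-box protein, a substrate adaptor of ubiquitin ligases known mainly from neurons, lies at chr2:73254682-73284431, minus strand, with no gene overlapping on either strand. It had 8215 counts (133 CPM) under miR-182-5p, 2716 (40.3 CPM) under miR-183-5p and 7221 (112 CPM) in NC, a ratio of 3.31 (3.16 to 3.45). The miR-183-5p library was low and the other two were high. Its 3' UTR held a miR-182-5p site and no miR-183-5p site. GPR161, a receptor of the primary cilium that restrains Hedgehog signalling, had 6.69, 2.12 and 4.31 CPM, and the peroxisomal import receptor PEX7 had 4.44, 1.75 and 3.94 CPM. In PEX7, as in FBXO41, NC was closer to the miR-182-5p library, and in GPR161 it lay between.

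In 5 others of the highest ratios the miR-182-5p library alone stood above. The synaptic adhesion protein NLGN3 had 5.56, 1.81 and 1.71 CPM, a ratio of 3.07 (2.49 to 3.81). The receptor phosphatase PTPRO had 8.18, 3.46 and 2.62 CPM, and TMOD2, which caps actin filaments, had 3.58, 1.51 and 1.04 CPM. NFATC4, a calcium-regulated transcription factor, had 8.51, 3.94 and 2.79 CPM, and the transporter SLC16A12 had 4.05, 1.84 and 1.69 CPM. The miR-183-5p and NC values of these 5 genes lay within 1.5-fold of each other. The remaining genes of the 15 highest without an overlapping gene were IQCN, NEURL3, CXCL1 and NPIPA5, with ratios from 2.16 to 2.38. In IQCN and NPIPA5, too, the miR-182-5p library alone stood above. The lowest ratios after SPRR1B were those of NPIPA7 at 0.391 (0.316 to 0.481), FGD4, the inositol phosphate kinase ITPKA at 0.441 (0.338 to 0.571) and the metallothionein MT1A at 0.463 (0.364 to 0.586). NPIPA5 and NPIPA7 belong to a family of near-identical copies and had opposite ratios; how reads were divided between them was not tested. PTAFR, the receptor for platelet-activating factor, had 3.11, 5.43 and 6.51 CPM, and CLDN23, a tight junction claudin, had 2.12, 3.46 and 3.15 CPM. The other genes of the 15 lowest, ZNF25, UBXN8, ETFRF1, ELOVL3, FUOM, PNPLA4, NDUFAF4 and ZNF441, had ratios from 0.544 to 0.647.

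**Figure D3:**
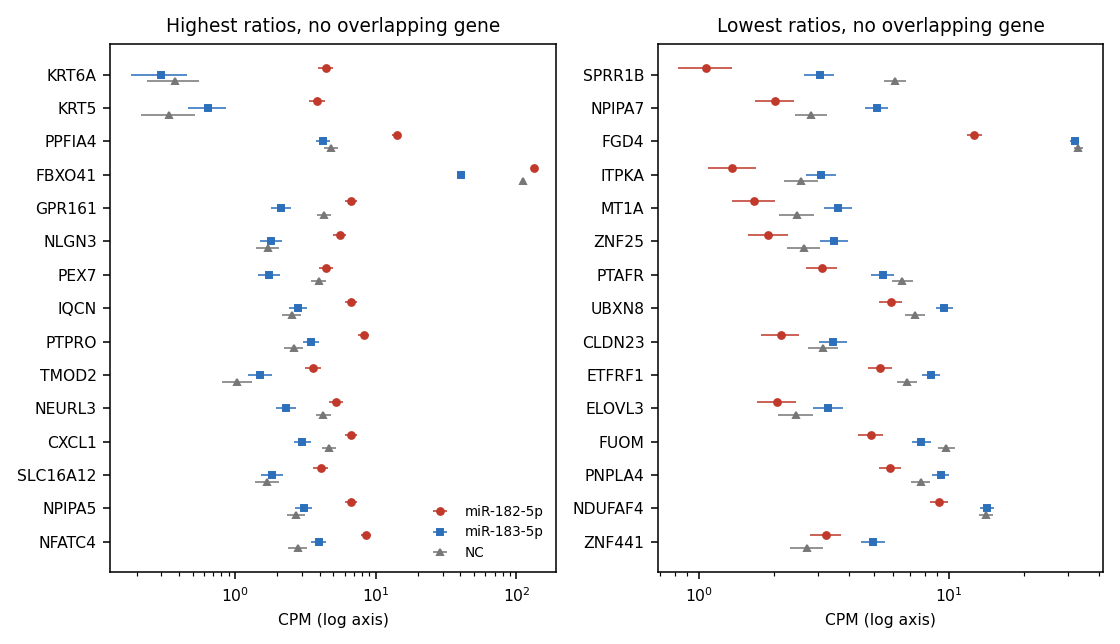
CPM (log axis) in the miR-182-5p (red circle), miR-183-5p (blue square) and NC (grey triangle) libraries of the 15 members with the highest and the 15 with the lowest ratio that overlap no gene on either strand, with exact 95% Poisson intervals of the counts. On the left, KRT6A and KRT5 have the widest gaps between the red circle and the other symbols, and FBXO41 is the only gene on either side above 100 CPM.

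The highest and lowest ratios among members with a gene on the opposite strand are given apart. The handling of strand is not given in the sources used here, so reads of the 2 partners cannot be told apart. The same limit holds for members with an opposite gene that are named elsewhere, among them THAP10, MRPL40, NOP16 and TUBA1B. The partner of THAP10, LRRC49, went the same way at 0.733, and that of TUBA1B, AC011603, went the other way at 3.64. HRH1, the histamine H1 receptor (chr3:11137093-11263557, plus strand), had 24 counts (0.389 CPM) under miR-182-5p, 560 (8.305 CPM) under miR-183-5p and 26 (0.403 CPM) in NC, a ratio of 0.0468 (0.0297 to 0.0704). It was the member with the lowest ratio of all, it stood out under miR-183-5p only, and its 3' UTR held 2 miR-183-5p sites. SLC13A4, a sulfate transporter, had 381 counts (6.17 CPM) under miR-182-5p, 55 (0.816 CPM) under miR-183-5p and 184 (2.85 CPM) in NC, a ratio of 7.57 (5.69 to 10.2). The chloride channel BEST1 had 24.3, 4.06 and 8.29 CPM and lies opposite FTH1, the ferritin heavy chain, at 1359, 1806 and 2411 CPM; the partner went the other way. NDUFA4L2, a hypoxia-induced subunit of the respiratory chain, had 5.61, 1.51 and 1.75 CPM opposite SHMT2, which had 337, 356 and 382 CPM. The copper-carrying ferroxidase CP had 3.37, 0.964 and 1.33 CPM, and MYL5, a myosin light chain, had 2.85, 6.39 and 4.898 CPM with a ratio of 0.446 (0.372 to 0.533). HYI, NTAQ1 and TRMT10A, the other low members of this kind, had ratios from 0.545 to 0.568, and TMEM74B was high at 2.64 (2.21 to 3.17).

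Of the 1465 members that reached 100 CPM in 1 or both libraries, 38 were called higher (2.59%) and 23 lower (1.57%). The lowest ratio was that of the alpha-tubulin TUBA1B, with 564, 826 and 888 CPM and a ratio of 0.682 (0.673 to 0.691). The chromatin-binding BANF1 followed with 74.3, 104 and 126 CPM and the beta-tubulin TUBB with 713, 958 and 1090.0 CPM. The ferritin light chain FTL came next with 454, 610.3 and 784 CPM, then RPS26 of the ribosome at 0.751 and the heavy chain FTH1 at 0.753. In all 6 the order was the same, lowest under miR-182-5p and highest in NC. The nuclear import factor KPNA2 had 399, 518 and 544 CPM and the mitochondrial import factor TOMM34 86.4, 113 and 120.3 CPM, and here the miR-183-5p library was within 1.1-fold of NC. At the upper end, after FBXO41, stood the collagen chain COL9A3 with 168, 112 and 108 CPM and a ratio of 1.5 (1.46 to 1.54), the secretory GTPase RAB3B with 113, 80.8 and 88.9 CPM and the mucin-type glycosyltransferase GCNT3 with 202, 145 and 192 CPM. The succinate receptor SUCNR1 had 249, 181 and 152 CPM and the junction protein AFDN 267, 198 and 229 CPM. Tubulins, ferritins and RPS26 have many processed copies in the genome and share the uncertainty of KRT6A.

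Gene groups of protein synthesis had ratios a little below 1 in most members, and few of them were called. Counts of lower calls in the lists are to be read against 4.15% of all members, and counts of higher calls against 9.42%. All 42 members among the cytosolic ribosomal protein genes had ratios below 1, and the counting interval lay below 1 in 41 of them, beside 32.5% of all members (the interval lay above 1 in 33.9% of them). Their median log2 ratio was -0.197, and only RPS26, at 0.751 (0.733 to 0.7701), was called. Other low values were RPL29 at 0.8102 (0.794 to 0.826) and RPS15 at 0.813 (0.792 to 0.834), and the highest was RPS27L at 0.982 (0.914 to 1.05). All 21 ribosome biogenesis genes were likewise below 1, with a median of -0.205 and 5 called lower. The nucleolar NOP16 had 32.5, 47.3 and 54.3 CPM, the assembly factor RRS1 24.6, 32.8 and 39.8 CPM and NHP2, a subunit of the particles that modify ribosomal RNA, 66.6, 88.98 and 103 CPM. MYC, the transcription factor that drives many of these genes, was at 0.986 (0.962 to 1.01).

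The mitochondrial ribosome and the enzymes that charge transfer RNA followed the same direction. Of 59 mitochondrial ribosomal proteins, 10 were called lower and none higher, with a median of -0.182, led by MRPL23 at 0.735 (0.689 to 0.784), MRPL40 at 0.746 (0.716 to 0.777) and MRPL39 at 0.762 (0.704 to 0.825). Of 26 aminoacyl-tRNA synthetases 3 were called lower, FARS2 at 0.726 (0.635 to 0.828), FARSB at 0.763 (0.722 to 0.808) and KARS1 at 0.789 (0.769 to 0.809), and the median was -0.125. Of 47 translation factors and their modifiers 2 were lower, EEF2KMT at 0.688 (0.614 to 0.77) and EIF4EBP1 at 0.798 (0.7396 to 0.861), with a median of -0.0981. The nuclear-encoded respiratory chain had 51 of 60 ratios below 1, a median of -0.133, and 2 lower calls, NDUFB11 at 0.7304 (0.692 to 0.7703) and ATP5MC1 at 0.7801 (0.733 to 0.8303). The 8 respiratory chain genes encoded by mitochondria themselves stood on the other side, with a median of 0.106 and 7 ratios above 1, from MT-ND1 at 0.941 (0.937 to 0.945) to MT-ND3 at 1.16 (1.15 to 1.17).

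Genes of proliferation and protein folding also had ratios mostly below 1. Of 30 DNA replication genes 29 were below 1, with a median of -0.209; RFC2, of the clamp loader, had 39.04, 54.6 and 56.3 CPM, GINS2, of the replicative helicase, 36.2, 45.5 and 54.7 CPM, and TYMS, which makes thymidylate, 60.6, 76.2 and 81.2 CPM. These 3 were called lower, and POLE at 1.07 (1.04 to 1.1) was the only member above 1. Of 28 mitotic genes 26 were below 1, with a median of -0.144, and SPC25, a kinetochore protein, was called at 0.764 (0.708 to 0.825). Among 20 chaperones the co-chaperone FKBP4 was called at 0.775 (0.756 to 0.794), with a median of -0.194, and the 34 proteasome genes had a median of -0.154 with no call, from PSMB2 at 0.826 (0.805 to 0.847) to PSMD6 at 1.07 (1.01 to 1.12). Among the regulators of entry into the cycle, 17 G1 cyclins, kinases and E2F factors had a median of -0.0136, and CCNE2 was called higher at 1.26 (1.08 to 1.48). Without the members that have an opposite gene this median was 0.0414, and the call of CCNE2 was lost under TMM and median-of-ratios scaling.

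The cytoskeleton and the glycolytic enzymes belonged to the lower groups. Of 17 tubulin genes 4 were called lower, with a median of -0.163 that came to -0.0451 in the 7 without an opposite gene. Those called were TUBA1A at 0.639 (0.599 to 0.682), TUBA1C at 0.768 (0.754 to 0.783), TUBA1B and TUBB, whereas the beta-tubulin TUBB2A was at 1.02 (0.935 to 1.104). TUBA1A lies opposite TUBA1C in part, with the reservation on strand given above. Of 33 actin and actin-binding genes 3 were called lower, COTL1 at 0.782 (0.759 to 0.805), CFL2 at 0.787 (0.716 to 0.865) and ACTG1 at 0.795 (0.788 to 0.803), and the highest was the tropomyosin TPM2 at 1.18 (1.14 to 1.22). All 9 glycolytic members were below 1, from GPI at 0.802 (0.786 to 0.818) and GAPDH at 0.807 (0.7997 to 0.814) to HK1 at 0.989 (0.958 to 1.02), with a median of -0.156 and no call.

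NRF2 is the transcription factor that answers oxidative stress, and its targets include the ferritins and enzymes that make NADPH. Of 26 members of the list 5 were called lower and 1 higher, with a median of -0.191. PIR had 6.58, 9.16 and 9.46 CPM, a ratio of 0.718 (0.632 to 0.815). Beside it FTL, FTH1, the export pump ABCC2 at 0.792 (0.694 to 0.904) and PGD, of the pentose phosphate pathway, at 0.795 (0.772 to 0.818) were lower, and the pump ABCC3 at 1.27 was higher, a call lost under TMM and median-of-ratios scaling. Against NC the list had a median of -0.511 under miR-182-5p and -0.33 under miR-183-5p, so both lay below NC and the miR-182-5p library further. Of 14 iron-handling genes the 2 ferritins were the only calls; the transferrin receptor TFRC, which iron usually regulates opposite to ferritin, was at 0.931, and the iron exporter SLC40A1 was at 1.15 (1.07 to 1.23). Of 26 glutathione and thioredoxin genes TXN2 alone was called, at 0.756 (0.709 to 0.807).

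TMM and median-of-ratios scaling move every ratio down by a common factor, so that lower calls increased by construction, over all members from 349 to 598 and 737. In the lists the number went from 10 to 17 and 19 for mitochondrial ribosomal proteins, from 1 to 5 and 9 for cytosolic ribosomal proteins, from 3 to 6 and 8 for DNA replication and from 5 to 7 and 9 for NRF2 targets. Against NC the cytosolic ribosomal proteins had medians of -0.374 under miR-182-5p and -0.163 under miR-183-5p, and DNA replication -0.266 and -0.0775.

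**Figure D4:**
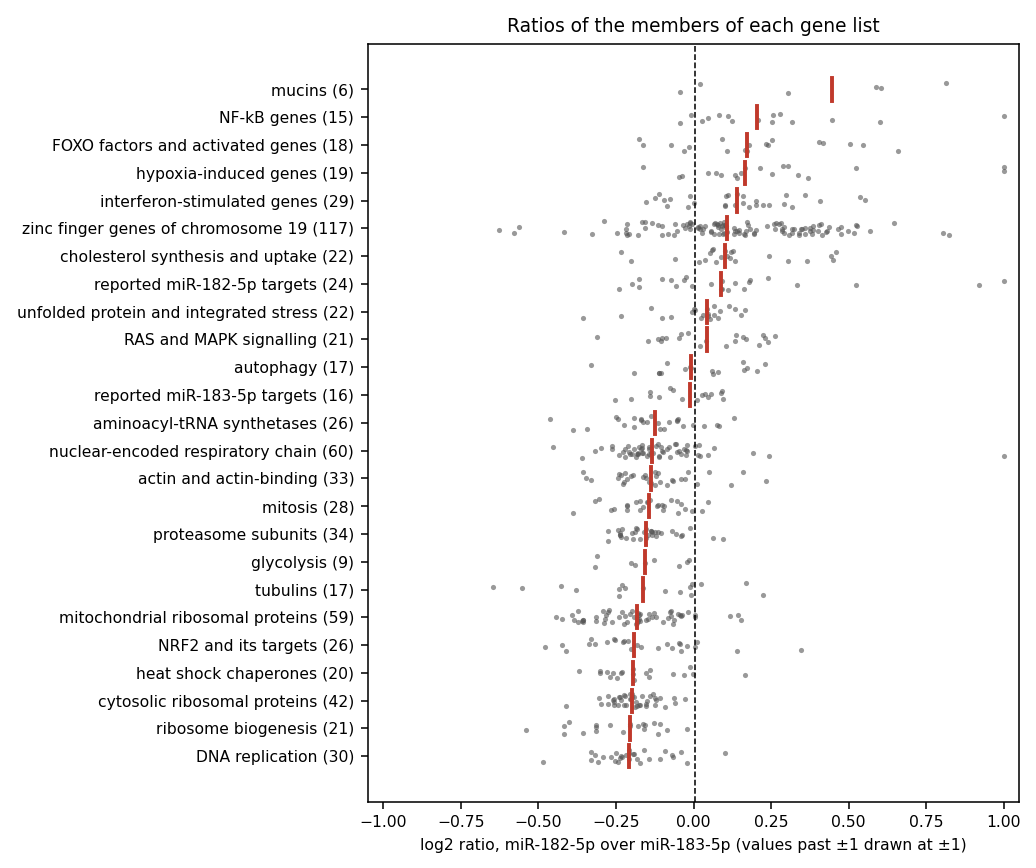
Log2 ratio of the miR-182-5p to the miR-183-5p library for every member of the gene lists named (points, with values past 1 in either direction drawn at the edge), the median of each list as a red bar, the number of members in parentheses and the median of all 8410 members as a dashed line. The lists of protein synthesis, replication, folding and NRF2 lie to the left of the dashed line with medians down to -0.209, and mucins, NF-kB, FOXO and hypoxia genes lie to the right with medians up to 0.446.

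Groups with higher ratios were smaller and less even. Of 6 mucins 3 were called higher and none lower, with a median log2 ratio of 0.446. This median was 0.162 with at least 1000 counts in 1 library, which leaves out MUC4 and MUC12, and 0.181 on the scale of log2 of the deposited FPKM plus 1. The membrane mucin MUC4 had 7.44, 4.23 and 5.301 CPM and a ratio of 1.76 (1.51 to 2.05), MUC12 had 13.4, 8.82 and 7.13 CPM and MUC1 18.6, 12.4 and 12.3 CPM, whereas the secreted gastric mucin MUC5AC had 98.02, 96.7 and 117 CPM. The membrane mucins MUC13 at 1.24 (1.21 to 1.26) and MUC3A at 0.971 (0.906 to 1.04) were not called, and in MUC1 the miR-183-5p library did not differ from NC by more than 1.1-fold. Among 8 keratins that include KRT5, the simple-epithelium keratins KRT18 at 0.869 (0.862 to 0.876) and KRT8 at 0.923 (0.917 to 0.929) were the lowest, followed by KRT10, a keratin of stratified epithelium, at 0.945 (0.8698 to 1.03). None of these was called.

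Inflammatory and interferon genes were mostly above 1. Of 15 NF-kB genes 3 were called higher and none lower, with a median of 0.206 (0.125 with at least 1000 counts in 1 library). The neutrophil chemokine CXCL1 had 6.64, 3.01 and 4.63 CPM, the inhibitor NFKBIE 10.01, 6.6 and 8.76 CPM and the feedback deubiquitinase TNFAIP3 22.8, 16.7 and 15.8 CPM. For CXCL1 the miR-183-5p library was below NC, and for TNFAIP3 it was within 1.1-fold of NC. Of 29 interferon-stimulated genes 4 were higher and none lower, with a median of 0.139; the antiviral MX1 had 7.36, 5.01 and 6.04 CPM, RSAD2 4.47, 3.08 and 1.86 CPM and ISG20 28.9, 21.8 and 23.9 CPM. PARP14 at 1.28 completes the 4. The list was not uniform: CMPK2 at 0.899 (0.754 to 1.07) and OAS2 at 0.917 (0.867 to 0.9703) were below 1, and 11 genes of antigen processing had a median of 0.0363 that went below 0 under both other scalings, with TAPBP alone called, at 1.26 (1.22 to 1.299), and not under either of those scalings.

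Several genes induced by low oxygen and by FOXO factors were called higher under miR-182-5p, and BNIP3 and NDRG1 among them are also reported miR-182-5p targets. Of 19 hypoxia-induced genes 5 were called higher and none lower, with a median of 0.166; under TMM and under median-of-ratios scaling 3 were called higher. BNIP3 had 3.81, 1.45 and 1.22 CPM, NDRG1 84.1, 58.5 and 66.1 CPM and the vasodilator peptide ADM 5.06, 3.92 and 3.596 CPM. NDUFA4L2 and INSIG2 were the others called, and NDUFA4L2 carries the reservation of its opposite gene. BNIP3 and NDUFA4L2 were kept through the miR-182-5p library alone and had to be higher there, so their calls count for little. Of 18 FOXO factors and FOXO-activated genes 5 were higher and none lower, with a median of 0.174. The insulin receptor substrate IRS2 had 9.01, 5.71 and 6.401 CPM and a ratio of 1.58 (1.38 to 1.802), the cyclin CCNG2 24.3, 16.6 and 20.5 CPM and SESN3, which restrains mTOR, 30.1, 21.2 and 22.5 CPM. The factors themselves lay within 1.1-fold: FOXO4 was at 0.951, FOXO3 at 0.979 and FOXO1 at 1.06.

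Cholesterol genes had 19 of 22 ratios above 1 and a median of 0.103, with 4 called higher and none lower. Among those called, the sterol carrier STARD4 had 91.8, 67.2 and 67.1 CPM and INSIG1, which holds back SREBP processing, 105, 77.2 and 79.9 CPM. The reductase TM7SF2 was called at 1.29. The epoxidase SQLE differed less, at 1.08, while ACAT2 at 0.8495 (0.805 to 0.896) and PMVK at 0.87 (0.785 to 0.963) were lower without a call. Calls in both directions were also found among transporters: of 20 ABC transporters the cholesterol exporters ABCA1, with 10.7, 6.79 and 6.49 CPM, and ABCG1, with 16.97, 11.3 and 9.87 CPM, and the pump ABCC3 were called higher, and ABCC2 lower.

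Zinc finger genes of chromosome 19, many of which are KRAB-type repressors, formed the largest list. Of 117 members 30 were called higher and 5 lower, with a median of 0.107. ZNF793 had 5.35, 3.02 and 2.25 CPM, ZNF345 6.97, 3.99 and 3.301 CPM and ZNF546 4.94, 3.16 and 2.84 CPM, and at the other end stood ZNF441 with 3.23, 4.98 and 2.697 CPM, ZNF383 with 5.79, 8.63 and 11.7 CPM and ZNF524 with 5.899, 8.72 and 9.33 CPM. Chromosome 19 as a whole had 103 of 585 members called higher (17.6%), beside 9.42% over all chromosomes, and a median of 0.0365; the other chromosomes of the nucleus had medians between -0.036 (chromosome 20) and 0.0316 (chromosome 18). The number of zinc finger genes called higher went to 23 under TMM and to 18 under median-of-ratios scaling.

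Transcription factors of liver and bile duct divided in both directions. Of 17 members PDX1 had 3.34, 2.18 and 3.27 CPM, PROX1 5.09, 3.68 and 3.52 CPM and ONECUT2 172, 131 and 101 CPM, and these 3 were called higher. CEBPA, a factor of hepatocyte differentiation, had 5.19, 6.84 and 10.6 CPM and NR0B2, the repressor of bile acid synthesis, 10.6, 13.5 and 11.2 CPM, and both were called lower. SOX9, the factor of bile duct and progenitor cells, was at 1.24 (1.201 to 1.28). In the TGF-beta list LTBP1, which stores latent TGF-beta, was called higher at 1.26 (1.19 to 1.35), a call lost under both other scalings. CCN2, a YAP target, had 4.02, 2.43 and 3.596 CPM, and the matrix protease MMP14 had 20.03, 12.9 and 11.98 CPM. Of 31 mitochondrial SLC25 carriers 5 were called higher, led by SLC25A42 at 1.67 (1.39 to 2.01) and SLC25A45 at 1.66 (1.49 to 1.85), and 2 lower. TFEB, the regulator of lysosome genes, was at 1.698 (1.41 to 2.05) and the 33 lysosome genes had a median of 0.0537, which was -0.0176 under median-of-ratios scaling. S100A1 stood apart in its list at 2.24 (1.86 to 2.71), with the other 7 S100 members below 1.

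Several signalling groups differed by little. The immediate early genes (23 members), the RAS and MAPK genes (21), the chromatin regulators (24), the kinesins (26), the SR proteins and hnRNPs (24) and the giant ubiquitin ligases (9) had no member called, and their medians ran from -0.0876 to 0.0469. The 19 p53 targets had a median of 0.106 with TP53INP1 as the only call, and CDKN1A, the classical target, was at 1.08. In the unfolded protein list SDF2L1 was called lower, at 0.781 (0.732 to 0.832), and the chaperone HSPA5 was at 0.997. The 18 of 60 lists whose median changed sign under another scaling had medians between -0.00666 and 0.07 when scaled to the total. They were the microRNA machinery, antigen processing, unfolded protein, histone, BCL2, TGF-beta, YAP and TAZ, Wnt feedback, immediate early, ABC transporter, liver and bile duct factor, junction, lysosome, chromatin regulator, giant ubiquitin ligase, mTOR and PI3K, RAS and MAPK and autophagy lists, so no direction is given for these as groups.

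Level and length of the transcripts moved with the ratio. From the lowest to the highest quintile of mean CPM the median log2 ratio went from 0.0828 to -0.0258, and the share called higher from 25.9% to 2.56%. From the shortest to the longest quintile of transcript length, as implied by the deposited FPKM, the median went from -0.0754 to 0.0632 and the number called lower from 154 to 21 of 1682 genes in each. The lists differed in both respects. The median transcript was 1155 nucleotides for cytosolic ribosomal proteins, 1158 for the nuclear-encoded respiratory chain, 1582 for the proteasome and 7604 for mucins, beside 3286 over all members. It was 3120 for DNA replication. The median level was 388 CPM for cytosolic ribosomal proteins and 77.2 CPM for DNA replication. The zinc finger genes of chromosome 19 had a median level of 12.4 CPM, beside 34.4 CPM over all members. The part of length and level in the list medians was not tested. With the GC content of the 3' UTR the median went from -0.00689 in the quintile with the least to 0.0164 in the quintile with the most, and the share called higher from 7.45% to 13.3%.

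**Figure D5:**
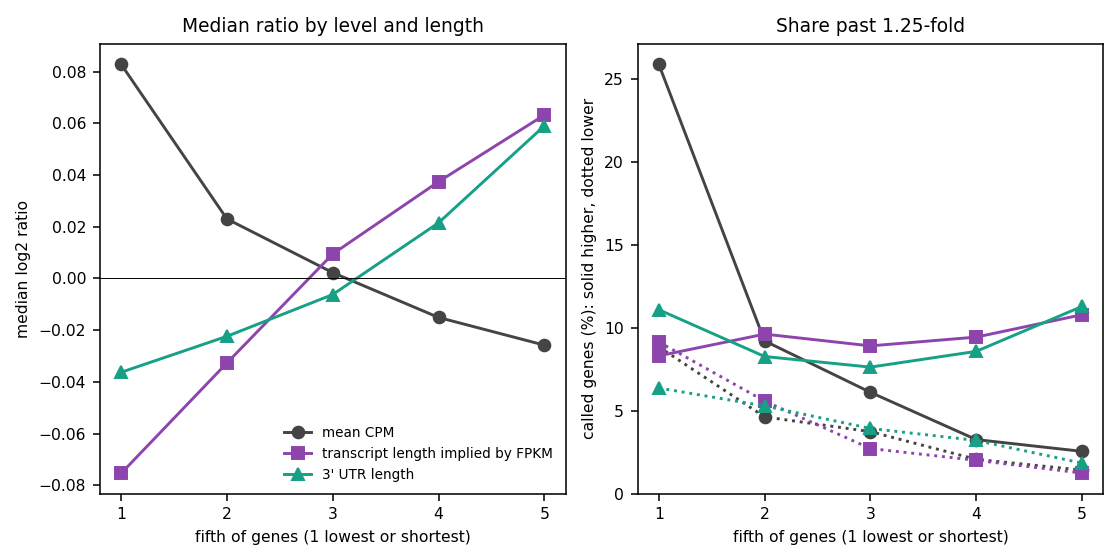
Left, median log2 ratio of the miR-182-5p to the miR-183-5p library by quintile of mean CPM, of transcript length implied by FPKM and of 3' UTR length; right, the share of members (percent) called higher (solid) and lower (dotted) in the same quintiles. The medians fall with level, from 0.0828 to -0.0258, and rise with transcript length, from -0.0754 to 0.0632.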

How the data were processed

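Gene counts and FPKM of 3 QBC-939 libraries were deposited in 1 table, per the file headers. The counts are whole numbers made by the authors, and the FPKM values were deposited beside them with no statement of how they were computed. The submitters' processing notes name cutadapt 1.9 and FastQC and give the build as GRCm38, a mouse assembly, although the gene identifiers are human; 8401 of the 8410 members lie on their GENCODE 29 (GRCh38) position. The sources used here do not give the aligner, the counter or its handling of strand.

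Counts were scaled to the column total as CPM, and ratios carry exact 95% intervals (Clopper-Pearson on the share of the first count in the pair; scipy 1.17.1), tested on simulated data. TMM (edgeR 4.0.16) and median-of-ratios (DESeq2 1.42.0) factors, computed on the whole table, served for scaling only. Quintiles of transcript length were taken from the count per FPKM, since the table gives no length, and list lengths from GENCODE. Named are, per direction, 15 members without any overlapping gene, 5 with an opposite one, 10 with at least 100 CPM, 3 per gene list and 8 with a seed site. Members and the 61 lists were chosen with earlier results of these data known. ADM, HSPA5, INSIG2, PARP14, PGD, SHMT2, SQLE, TFRC and TM7SF2 fall outside this rule and were named after their values were seen. Some genes the rule names are not reported here. Depth was 61709874 to 67427313 counts.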

Additional observations from a re-analysis of the deposited data

Results flagged for a closer look

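Coding genes that overlap another gene on the same strand were left out of the comparison, and 10 of them had at least 200 counts in 1 microRNA library and 0 in the other. They are given here because a signal of that size appeared outside the genes compared. Under miR-183-5p AC087721 had 876 counts, AP001273 668, AC117378 234, AC098582 204 and FAM47E-STBD1 204, with 0 under miR-182-5p. Under miR-182-5p AL136295 had 786 counts, AP002748 608, HSPE1-MOB4 454, RPL17-C18orf32 246 and ZNF358 218, with 0 under miR-183-5p. Against a floor of 3 counts per library, the upper limit that a count of 0 allows, the levels were at least 62.2-fold (FAM47E-STBD1) to at least 286.3-fold (AL136295) higher. The names HSPE1-MOB4, RPL17-C18orf32 and FAM47E-STBD1 each join those of neighbouring genes, as readthrough transcripts do, and all 10 share their span with 1 to 6 genes on the same strand. The NC library had 0 counts for AL136295, HSPE1-MOB4, AC117378 and AC098582, and 53 to 542 for the others. How the authors' counter divides reads between overlapping genes is not given in the sources used here, and its part in these values was not tested.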

How the results depend on the processing

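With 1 library per group, the limits are those of 2 single libraries: counting error is small at 200 or more counts, and the spread between cultures is not known. The 792 higher members became 502 under median-of-ratios scaling, and the 349 lower members became 598 under TMM and 737 under median-of-ratios scaling, because these factors shift all ratios down. With genes of at least 1 count in either library 1759 were higher and 804 lower, with at least 1000 counts 327 and 198, with no overlapping gene on either strand 441 and 193, and on the scale of log2 of the deposited FPKM plus 1, 288 and 180. At 1.5-fold 196 and 35 members passed. At 2-fold 32 and 7 did. Fewer or more genes, or a stricter fold, account for those counts by construction; for the FPKM scale the pseudocount of 1 shrinks the ratio of low genes.

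For seed-site genes, the difference between those with a miR-182-5p site only and those with a miR-183-5p site only, -0.0218, was -0.0462 with no overlapping gene on either strand and -0.0171 to -0.0271 under the other settings; the cause was not tested. The median of p53 targets was -0.0231 with at least 1000 counts, and that of bile duct transport genes -0.0246 with no overlapping gene on either strand, both of the other sign; fewer members were left in each. TMM, median-of-ratios scaling and a total without mitochondrial genes each shift every ratio by a common factor. That no list median moved by more than 0.1 under them follows from this shift and says nothing of single lists. Of the 422 named genes 13 lost and 24 gained a call under TMM, and 15 and 33 under median-of-ratios scaling. No paired analysis was possible because each group has 1 library. For the same reason no replicate could be left out.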

Other observations

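Further gene groups, described by the same rule, carried few calls. Those of NES, GPC3, GRB7, BMF, MARVELD2 and H3C6 were lost under both TMM and median-of-ratios scaling. For the carcinoma surface antigens either scaling gave 0 higher calls and 1 lower. Of 6 genes of fatty acid synthesis none was called, the median log2 ratio was 0.122, and the acyl-CoA synthetase ACSL3 at 1.18 (1.16 to 1.202) and the desaturase SCD at 1.17 (1.16 to 1.18) stood highest. Of 10 stem and progenitor markers NES, a filament protein of progenitor cells, was called higher at 1.27 (1.19 to 1.35), and the median was 0.149. Of 18 junction genes TJP3 at 1.38 (1.28 to 1.48) and MARVELD2 at 1.28 (1.18 to 1.39), both of the tight junction, were called higher, and the desmosomal plakophilin PKP3 was lowest at 0.856 (0.824 to 0.888). Of 10 carcinoma surface antigens the fetal liver proteoglycan GPC3 was called higher at 1.27 (1.22 to 1.32), while CEACAM6 at 0.8003 (0.718 to 0.892) and CEACAM5 at 0.889 (0.835 to 0.947) were below 1.

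Of 9 EGF receptor genes and ligands the adaptor GRB7 was called higher at 1.26 (1.197 to 1.32) and the ligand AREG was lowest at 0.931 (0.911 to 0.951). Of 10 genes of the BCL2 family the death-promoting BMF was called higher at 1.29 (1.19 to 1.41), and BCL2 itself was at 0.952 (0.789 to 1.15). Of 9 replication-dependent histone genes H3C8 at 1.85 (1.495 to 2.296) and H3C6 at 1.27 (1.04 to 1.55) were called higher, both kept through the miR-182-5p library alone, so that they had to be higher there; most histone transcripts lack a poly(A) tail, and the selection of RNA used for the libraries is not given in the sources used here. Of 14 enzymes of serine and one-carbon metabolism TYMS was called lower at 0.796 (0.763 to 0.831). Of 17 autophagy genes ATG5 alone was called, lower at 0.795 (0.742 to 0.853), and of 18 genes of mTOR and PI3K signalling IRS2 was higher and EIF4EBP1 lower.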
